A study of Mus musculus with 6 samples.

Results

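The T cell receptor complex and its coreceptors were followed here through the transcripts of 10 genes in mouse gastrointestinal stromal tumours after imatinib or vehicle: the CD3 chains Cd3d, Cd3e, Cd3g and Cd247, the coreceptors Cd4, Cd8a and Cd8b1, the kinases Lck and Zap70, and the adaptor Skap1. The members were the entries of the deposited gene-level table that a name, platform symbol or RefSeq record tied to one of these 10. The array held 29516 gene names. The members came to 12 entries and 22 probes. Of the entries, 3 were reached only through an older name or an accession in RefSeq. These 3 gave the tested values of Cd8a, Cd8b1 and Skap1. Of the 10 genes, 9 were detected well enough to be tested among 14713 genes, and Cd4 was not. Imatinib, a small-molecule inhibitor of KIT, ABL and the PDGF receptors, had been injected into the peritoneum before 3 tumours were taken, and vehicle before another 3. All 6 samples were labelled GIST tumor from C57Bl/6 mice of 6 weeks with the genotype Kit V558Δ/+, an activating mutation of the receptor that drives these tumours, so no group without the mutation was compared. The labels state neither the dose nor how long the mice were treated. They also leave it unsaid whether each sample came from its own animal, so a p-value here reflects the spread of these 6 samples, part of which may be technical.

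The T cell receptor recognises antigen through a pair of variable chains that cannot signal by themselves. The CD3 chains and the zeta chain encoded by Cd247 carry the signalling motifs, the coreceptors CD4 and CD8 bind MHC class II and class I and bring the kinase LCK to the complex, and ZAP-70 then docks on the phosphorylated chains and passes the signal on. Together these transcripts are commonly read as a measure of T cells in tumour tissue, where CD8 marks mainly cytotoxic cells and CD4 mainly helper and regulatory cells. In bulk RNA fewer cells of a type and less RNA per cell cannot be told apart.

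Values are log2 signals after background correction and quantile normalization, and a change is the imatinib mean minus the vehicle mean with its standard error (SE). A gene was called at an adjusted p of 0.05 (limma with Benjamini-Hochberg adjustment over all 14713 genes). By that rule 232 genes were called, 1.58% of those tested, of which 155 were lower (1.05%) and 77 higher (0.523%) with imatinib. A probe counted as detected on an array at a detection p under 0.05 against the negative controls, which held for 45.7% to 47.3% of probes per array at a median of 43 beads each. Kit, the tumour's driver and the marker of the labelled tissue, averaged 13.94 ± 0.50 with imatinib and 14.25 ± 0.20 with vehicle (SD, n = 3 arrays each), and none of the 6 measured markers of GIST and interstitial cells of Cajal was called. Those of smallest p were Prkcq, a kinase that GIST cells share with T cells, with a change of -0.78, and Cd34, a marker of stromal and progenitor cells, with 0.33. The leukocyte gene Ptprc, which encodes CD45, averaged 9.36 ± 0.26 with imatinib and 9.82 ± 0.04 with vehicle.

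No member was called, against the 1.58% of all tested genes that were. All 9 tested members had a lower mean with imatinib, where 45.7% of all tested genes did, and their median change was -0.66 against 0.04 over all genes. In 7 of the 9 the 3 imatinib arrays lay wholly below the 3 vehicle arrays, against 14.5% of all genes. An unadjusted p under 0.05 with a lower mean was reached by 6 of the 9, against 12.6% of all genes. At the looser adjusted p of 0.1, 5 members were lower, namely Cd8a, Cd3g, Skap1, Cd3e and Lck, against 6.08% of all genes. Of the 9, 8 were detected on all 6 arrays, so the filter on dim probes did not select them through 1 group. Genes of one cell type share their arrays and vary together, and the list was chosen with earlier results of these data known. For both reasons these counts describe the list and are no test of it.

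**Figure D1:**
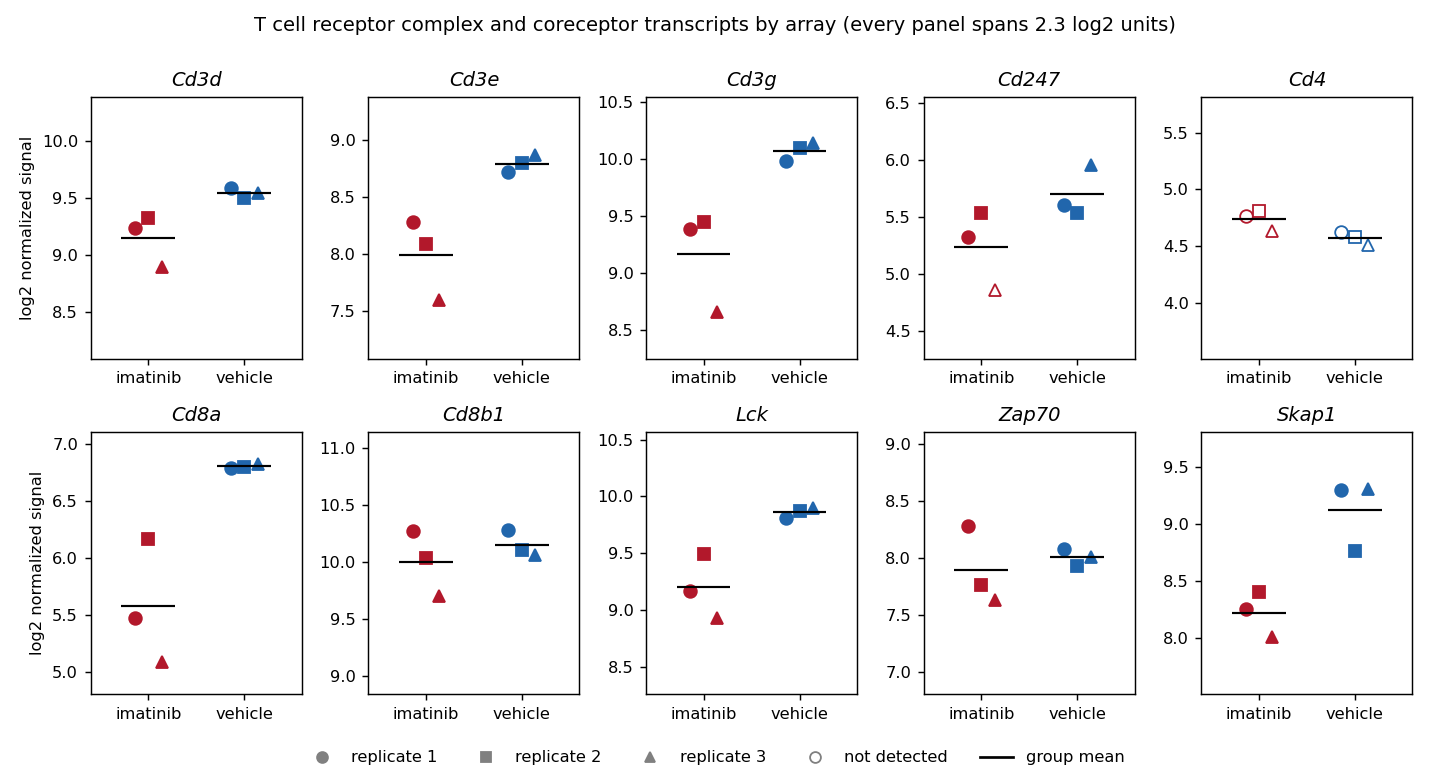
Log2 normalized signal (vertical axis) of each of the 10 genes on the 3 imatinib arrays (red) and the 3 vehicle arrays (blue). Marker shapes give the replicate, open markers a probe not detected on that array, and bars the group mean; every panel spans the same number of log2 units. In 7 genes every imatinib array lies below every vehicle array, Cd8b1 and Zap70 overlap, and Cd4 was detected on no array.

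The genes of the gamma, delta and epsilon chains lie together on chromosome 9. In the RefSeq table for mouse GRCm38.p6, Cd3g and Cd3d are transcribed away from each other from starts 1338 bases apart, and Cd3e lies beyond Cd3d. Their promoter windows of 300 bases, which run from upstream of the start to just past it, are shown because the 3 genes lie in 1 cluster and each had a lower mean with imatinib. Capitals mark exact matches, on either strand, to 4 short motifs of factor families known in T cells: GGAAGT for ETS, TGTGGT for RUNX, CTTTGA for TCF/LEF and CACCTG for the E-box.

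Cd3d, chr9:44981536-44981835, plus strand: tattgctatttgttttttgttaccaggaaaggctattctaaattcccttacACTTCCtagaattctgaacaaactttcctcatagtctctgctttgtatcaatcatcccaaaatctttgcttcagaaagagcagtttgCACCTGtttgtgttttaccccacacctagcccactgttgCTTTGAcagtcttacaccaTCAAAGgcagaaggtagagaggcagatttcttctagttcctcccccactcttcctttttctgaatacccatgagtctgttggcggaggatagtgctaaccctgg
Cd3g, chr9:44980382-44980681, minus strand: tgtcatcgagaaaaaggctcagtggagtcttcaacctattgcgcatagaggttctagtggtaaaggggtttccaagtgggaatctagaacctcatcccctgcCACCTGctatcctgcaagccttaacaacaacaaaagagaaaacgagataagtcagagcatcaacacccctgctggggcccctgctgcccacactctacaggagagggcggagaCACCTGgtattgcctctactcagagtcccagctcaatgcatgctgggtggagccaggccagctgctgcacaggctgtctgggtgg
Cd3e, chr9:45009562-45009861, minus strand: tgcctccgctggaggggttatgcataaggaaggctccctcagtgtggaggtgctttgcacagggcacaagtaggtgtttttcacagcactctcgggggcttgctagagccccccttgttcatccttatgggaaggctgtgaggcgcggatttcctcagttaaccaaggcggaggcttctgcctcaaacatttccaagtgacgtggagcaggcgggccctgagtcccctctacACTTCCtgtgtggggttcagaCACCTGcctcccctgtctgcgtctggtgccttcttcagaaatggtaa

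Each of the 3 windows held the E-box word, those of Cd3d and Cd3e held the ETS word, and that of Cd3d held the TCF/LEF word in addition. Words this short are common. The E-box word occurred in 20.2% of the 32851 mouse windows of this length, the ETS word in 23.8%, the RUNX word in 16.8% and the TCF/LEF word in 5257 of them. The table held 10 windows for 7 members, with 3 for Zap70 and 2 for Lck. Of these 10 windows, 8 held the E-box word, 6 the ETS word, 3 the TCF/LEF word and 2 the RUNX word. A match is only a run of letters and shows no binding.

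Among the invariant chains, Cd3g, the gamma chain, had log2 signals of 9.39, 9.45 and 8.66 on the imatinib arrays, against 9.98, 10.10 and 10.14 on the vehicle arrays. The groups did not overlap, and imatinib 3 lay lowest. The mean was 9.17 ± 0.44 with imatinib and 10.08 ± 0.08 with vehicle (SD, n = 3 arrays each), a change of -0.91 ± 0.23 (SE) or 1.88-fold lower, with an adjusted p of 0.0789 (limma) that missed the threshold.

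Cd3e, the epsilon chain, which pairs with either the gamma or the delta chain, had 8.28, 8.09 and 7.60 on the imatinib arrays and 8.72, 8.80 and 8.87 on the vehicle arrays. Again every imatinib array lay below every vehicle array. The change was -0.81 ± 0.19, 1.75-fold lower, with an adjusted p of 0.0749 (limma) and a 95% interval of -1.27 to -0.35. A separate probe of Cd3e gave -0.67. Cd3d, the delta chain, had 9.24, 9.32 and 8.89 on the imatinib arrays and 9.59, 9.50 and 9.54 on the vehicle arrays. The groups stood apart here too, but the change of -0.39 ± 0.14 was smaller and its adjusted p was 0.151 (limma).

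Cd247, the zeta chain, was close to background. Its tested probe had 5.32, 5.53 and 4.86 on the imatinib arrays, the last of them not detected, and 5.60, 5.53 and 5.95 on the vehicle arrays. Imatinib 2 and vehicle 2 were nearly level, so the groups were separate only by a hair. The change of -0.46 ± 0.21 had an adjusted p of 0.222 (limma) and a 95% interval of -0.97 to 0.05, and it shrank to -0.27 without imatinib 3. Another detected probe of the gene gave -0.33 with overlapping groups.

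Among the coreceptors, Cd8a was lower in mean, Cd8b1 was close to level and Cd4 was not detected. Cd8a, the CD8 alpha chain, had 5.47, 6.16 and 5.09 on the imatinib arrays, against 6.79, 6.80 and 6.82 on the vehicle arrays. The vehicle arrays were almost equal and the imatinib arrays spread widely below them, with imatinib 3 again lowest. The mean was 5.57 ± 0.54 with imatinib and 6.80 ± 0.02 with vehicle (SD, n = 3 arrays each). The change of -1.23 ± 0.27 (SE), 2.34-fold lower, was the largest among the members, with a 95% interval of -1.87 to -0.59 and an adjusted p of 0.0654 (limma). Without imatinib 2 the change was -1.51 and passed (adjusted p = 0.0305, limma), while over the other settings that test it the adjusted p lay between 0.0018 and 0.214.

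The Cd8a value rests on a single dim probe, deposited under the older name LYT-2. Its raw signals were 65.4, 104 and 56.4 on the imatinib arrays and 136, 137 and 143 on the vehicle arrays. The faintest detected probe lay between 54.2 and 61.4 on the imatinib arrays and between 58.8 and 62.5 on the vehicle arrays, and imatinib 3 was close to the floor of its own array, at 55.4. The 2 probes deposited under the name CD8A itself were detected on no array, at 30.5 to 52.7 on the imatinib arrays and 35.3 to 48.3 on the vehicle arrays. In the authors' processed table the change of Cd8a was -0.62. That was smaller than the -0.89 of Cd3g, -0.77 of Skap1, -0.70 of Cd3e and -0.64 of Lck there. It was larger than the changes of the remaining tested members, so the rank of Cd8a among the members depends on the processing. The promoter window of Cd8a, shown because this gene had the largest change with the processing used here, held none of the 4 words.

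Cd8a, chr6:71373177-71373476, plus strand: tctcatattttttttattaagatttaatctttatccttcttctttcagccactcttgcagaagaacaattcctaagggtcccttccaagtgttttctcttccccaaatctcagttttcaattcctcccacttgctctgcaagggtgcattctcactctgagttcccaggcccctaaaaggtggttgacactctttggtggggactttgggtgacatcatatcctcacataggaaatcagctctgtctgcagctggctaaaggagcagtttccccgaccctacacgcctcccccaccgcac

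Cd8b1, the CD8 beta chain that pairs with the alpha chain on most cytotoxic T cells, showed no difference between the groups at this precision. Its tested probe had 10.27, 10.03 and 9.70 on the imatinib arrays and 10.28, 10.10 and 10.06 on the vehicle arrays. The groups overlapped. Imatinib 1 lay level with the highest vehicle array, imatinib 2 just below the lowest and imatinib 3 further below. The change was -0.14 ± 0.17 with a 95% interval of -0.56 to 0.27 (adjusted p = 0.607, limma), and it was 0.01 without imatinib 3.

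The 3 detected probes of Cd8b1 did not follow one pattern over the arrays. A probe of similar brightness had 9.56, 10.17 and 9.52 on the imatinib arrays and 10.25, 9.56 and 10.30 on the vehicle arrays. A dimmer probe had 6.17, 6.68 and 5.95 on the imatinib arrays and 6.94, 5.92 and 6.62 on the vehicle arrays. Both were high on imatinib 2, vehicle 1 and vehicle 3 and low on the other 3 arrays, a pattern that crosses the treatment groups and that the tested probe lacked. Their changes were -0.28 and -0.22, and the groups overlapped in both. Which transcript each probe reads was not tested.

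Cd4, the coreceptor of helper T cells, was not measured. Its 2 probes were detected on none of the 6 arrays, with raw signals of 42.7 to 54.0 on the imatinib arrays and 42.0 to 47.3 on the vehicle arrays. These lie below the faintest detected probe of each array, so no fold is given and CD8 could not be set against CD4 in these tumours. Cd4 transcripts below the detection limit of these 2 probes are not shown to be absent.

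**Figure D2:**
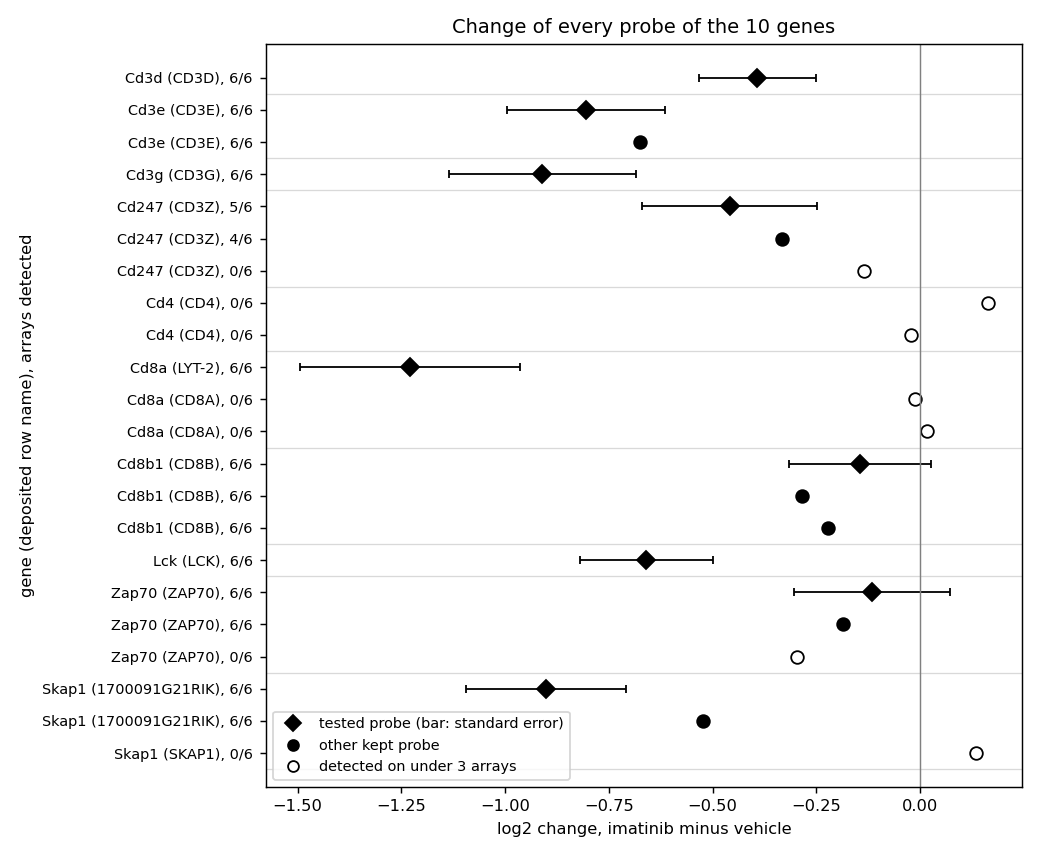
Change (log2, imatinib minus vehicle, horizontal axis) of each of the 22 probes of the 10 genes, with the deposited entry name in brackets and the number of arrays on which the probe was detected. Diamonds are the tested probes with their standard errors, filled circles other probes that passed the filter, and open circles probes detected on under 3 arrays. All 15 probes that passed lie left of 0, while the undetected probes of Cd4, Cd8a and Skap1 lie close to it.

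Lck, the kinase that phosphorylates the CD3 and zeta chains, had 9.17, 9.49 and 8.94 on the imatinib arrays, against 9.81, 9.87 and 9.90 on the vehicle arrays. The groups did not overlap. The mean was 9.20 ± 0.28 with imatinib and 9.86 ± 0.04 with vehicle (SD, n = 3 arrays each), a change of -0.66 ± 0.16 or 1.58-fold lower (adjusted p = 0.0773, limma). Lck is transcribed in the mouse from 2 promoters far apart, one used mainly in thymocytes and the other in mature T cells as well, and the array did not tell their transcripts apart. Both windows held the ETS and the E-box word, and the upstream window held the RUNX word in addition.

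Lck upstream start, chr4:129573592-129573891, minus strand: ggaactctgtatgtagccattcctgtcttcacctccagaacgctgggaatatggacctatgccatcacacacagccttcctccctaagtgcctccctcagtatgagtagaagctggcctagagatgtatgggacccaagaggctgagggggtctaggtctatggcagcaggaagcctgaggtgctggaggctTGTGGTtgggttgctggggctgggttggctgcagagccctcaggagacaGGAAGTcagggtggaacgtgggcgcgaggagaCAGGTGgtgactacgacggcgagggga
Lck downstream start, chr4:129558323-129558622, minus strand: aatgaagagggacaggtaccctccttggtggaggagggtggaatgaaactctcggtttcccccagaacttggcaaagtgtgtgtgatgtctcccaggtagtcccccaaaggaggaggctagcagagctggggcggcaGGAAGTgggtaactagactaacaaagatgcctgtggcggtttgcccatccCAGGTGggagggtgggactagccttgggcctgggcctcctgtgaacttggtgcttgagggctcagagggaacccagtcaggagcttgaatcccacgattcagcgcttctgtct

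Zap70, the kinase recruited to the phosphorylated receptor, had 8.28, 7.76 and 7.63 on the imatinib arrays and 8.08, 7.93 and 8.01 on the vehicle arrays. The groups overlapped, with imatinib 1 above all vehicle arrays and the remaining imatinib arrays below them. The change was -0.12 ± 0.19 with a 95% interval of -0.57 to 0.34 (adjusted p = 0.715, limma), and it was 0.01 without imatinib 3. Another detected probe gave -0.19.

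Skap1, an adaptor that links the receptor to integrin adhesion through the protein encoded by Fyb, had 8.25, 8.40 and 8.01 on the imatinib arrays, against 9.30, 8.76 and 9.30 on the vehicle arrays. The groups did not overlap, and vehicle 2 was the lowest of the vehicle arrays. The change was -0.90 ± 0.19, 1.87-fold lower, with an adjusted p of 0.0646 (limma). Without vehicle 2 it was -1.08 and passed (adjusted p = 0.0325, limma), while over the other settings the adjusted p lay between 0.0015 and 0.218. This value comes from a probe deposited under the clone name 1700091G21RIK, whose companion probe gave -0.52, and the probe deposited as SKAP1 was detected on no array.

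The members were not equally tight within groups. In 8 of the 9 the standard deviation was larger over the imatinib arrays than over the vehicle arrays, which held for 46.2% of all tested genes. All 9 had their lowest value on imatinib 3, where 22.1% of all tested genes had theirs. The summed background-corrected signal of the 9 was 3956, 3912 and 2768 on the imatinib arrays and 5261, 4995 and 5287 on the vehicle arrays. Without imatinib 3, 7 members still had a lower mean with imatinib, among them Cd8a at -0.99, Skap1 at -0.80, Cd3g at -0.66 and Cd3e at -0.61, and none passed.

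The change of each CD8 chain relative to each CD3 chain was taken within arrays, as the difference of the 2 log2 signals. Probes differ in brightness, so the size of such a difference has no meaning and only its shift between groups is read. There were 8 pairs, and with 3 arrays against 3 an exact permutation test cannot give a p below 0.1, so no pair could pass. Cd8a was lower relative to Cd3d, by -0.84 (exact two-sided p = 0.1, 0.16 after adjustment over the 8 pairs). The differences were -3.76, -3.16 and -3.80 on the imatinib arrays and -2.80, -2.70 and -2.72 on the vehicle arrays, with no overlap. Relative to Cd247 the shift was -0.77, also with no overlap. Relative to Cd3e and Cd3g the shifts were -0.42 and -0.32 (exact two-sided p = 0.4 and 0.3), the groups overlapped, and the sign turned in the authors' processed table, to 0.08 and 0.27.

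Cd8b1 stood the other way relative to the CD3 chains. Its shift was 0.66 against Cd3e, 0.77 against Cd3g and 0.25 against Cd3d, with no overlap between the groups in any of the 3 (exact two-sided p = 0.1 each, 0.16 adjusted). Relative to Cd3e the differences were 1.99, 1.94 and 2.10 on the imatinib arrays and 1.56, 1.30 and 1.19 on the vehicle arrays. Relative to Cd247 the shift was 0.31 with overlap (exact two-sided p = 0.3). With either of the other detected Cd8b1 probes in its place, the shifts stayed above 0, between 0.11 and 0.69, but the groups overlapped in all 8 cases.

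**Figure D3:**
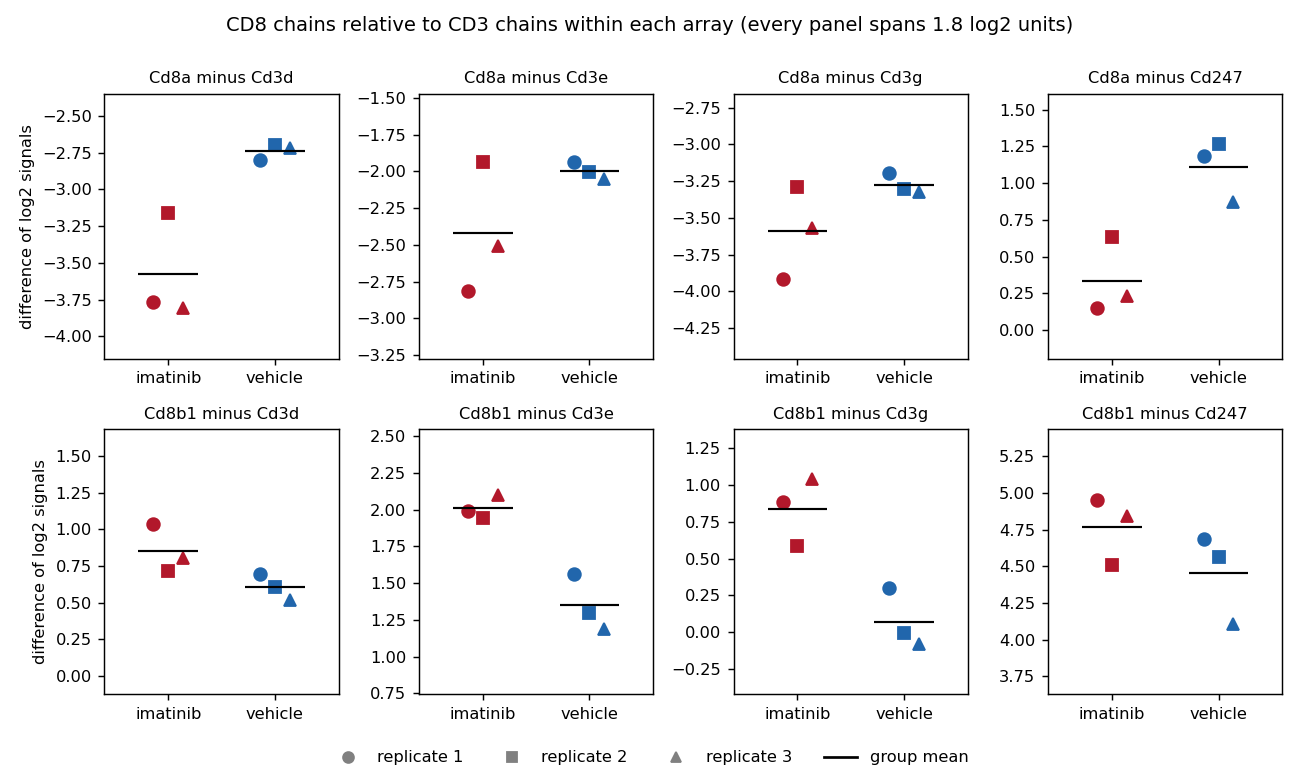
Difference of log2 signals within each array (vertical axis) for Cd8a (upper row) and Cd8b1 (lower row) minus each CD3 chain, on the imatinib arrays (red) and vehicle arrays (blue), with bars for group means. Relative to Cd3d, Cd8a lies lower on all imatinib arrays and Cd8b1 higher on all of them; relative to Cd3e and Cd3g the Cd8a groups overlap.

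The variable and constant segments of the receptor's own chains were represented by 53 entries of the deposited table, chosen by their names after the entries had been seen. Of the 19 alpha entries 18 were detected on no array, among them the constant segment Trac, so the alpha chain went almost unmeasured. Of the beta entries 9 were tested, every mean was lower with imatinib, against 45.7% of all genes, and 6 of them stood with no overlap between groups, against 14.5% of all genes. The 5 tested gamma entries were lower in mean as well, and 2 of these had no overlap. The no-overlap counts include the beta entry TCRB and the gamma entry TRGC4, each detected on 1 imatinib array and all 3 vehicle arrays. Both reached the filter through the vehicle arrays, so they add no support to these counts. The median change was -0.51 over the tested beta entries and -0.38 over the tested gamma entries, against 0.04 over all genes.

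Of 16 tested segments 1 passed, against 1.58% of all tested genes. It was TRBV12-2, a beta variable segment, named after its values were seen. Its raw signals were 61.2, 74.6 and 58.0 on the imatinib arrays and 108, 101 and 120 on the vehicle arrays, and the change was -1.04 ± 0.13 (adjusted p = 0.041, limma). The brightest entry, TCRB-V13, had raw signals of 3687, 4237 and 2651 on the imatinib arrays and 4958, 4883 and 4800 on the vehicle arrays, a change of -0.35 ± 0.14 (adjusted p = 0.184, limma). The gene Tcrb, in the fixed list of constant chains of which it alone was measured, was detected on 1 imatinib array and all 3 vehicle arrays. Its change of -0.66 (adjusted p = 0.121, limma) includes 2 imatinib values not above background, so its size is not well measured. The delta segment TCRD-V1 had the largest change, -1.36 ± 0.37, with vehicle 2 at 383 raw units close to imatinib 2 at 386 (adjusted p = 0.0925, limma). Segments of one family share sequence, so a probe may read more than 1 of them.

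Downstream of the receptor, 29 of 35 proximal signalling genes were measured. Of these 24 had a lower mean with imatinib, against 45.7% of all genes, and 13 did so with no overlap between groups, against 14.5% of all genes. The median change was -0.25. The counts include Fyn and Sla2, which were detected on vehicle arrays alone, so these 2 genes add no support. At an unadjusted p under 0.05, 12 were lower and 1 was higher, against 12.6% and 13.8% of all genes. Fyn, a kinase related to Lck, was the only one called, against 1.58% of all tested genes. It was detected on no imatinib array and on all 3 vehicle arrays, so it entered the test through the vehicle arrays alone, and its bound was small, at least 1.09-fold lower (adjusted p = 0.0473, limma). For such a bound the undetected arrays were raised, where needed, to their faintest detected signal.

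The next in order of p were also lower with no overlap but missed the threshold. Dok1, an inhibitory adaptor, had 5.50, 5.81 and 5.94 on the imatinib arrays and 6.86, 6.53 and 6.99 on the vehicle arrays (change -1.04 ± 0.18, adjusted p = 0.0506, limma). The change was -0.57 ± 0.11 for Lcp2, which encodes the adaptor SLP-76, and -0.54 ± 0.11 for Fyb, the partner of Skap1, neither of them called. Lcp2, Fyb and Dok1 are used in myeloid cells as well as in T cells.

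Surface and costimulatory molecules of T cells had a median nearer 0. Of 15 listed, 12 were measured and none was called, against 1.58% of all tested genes. A lower mean was found in 8, against 45.7% of all genes, and 1 of them had no overlap, against 14.5%. The median change was -0.12. Thy1, a surface protein of mouse T cells and of some stromal cells, had a change of -0.35 ± 0.15 (adjusted p = 0.200, limma). Il7r, the receptor for a survival cytokine of resting lymphocytes, stood the other way, at 9.06, 8.45 and 9.85 on the imatinib arrays and 7.82, 7.75 and 8.06 on the vehicle arrays (change 1.25 ± 0.34, adjusted p = 0.0948, limma). The pan-T markers Cd2 and Cd5, fixed beside the CD3 chains as T cell markers, gave -0.04 and -0.29 with overlapping groups.

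Of the 14 transcription factors of the T lineage 10 were measured and none was called, against 1.58% of all tested genes. In mean 5 were lower, against 45.7% of all genes, and 5 higher, with a median of -0.02. Satb1, a chromatin organiser needed in thymocytes, had the smallest p and was higher, by 0.64 ± 0.12 with no overlap (adjusted p = 0.0572, limma). Eomes, a factor of cytotoxic T and NK cells, was lower by the same measure, at -0.57 ± 0.15 with no overlap (adjusted p = 0.0852, limma). The difference between the lists was not tested.

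**Figure D4:**
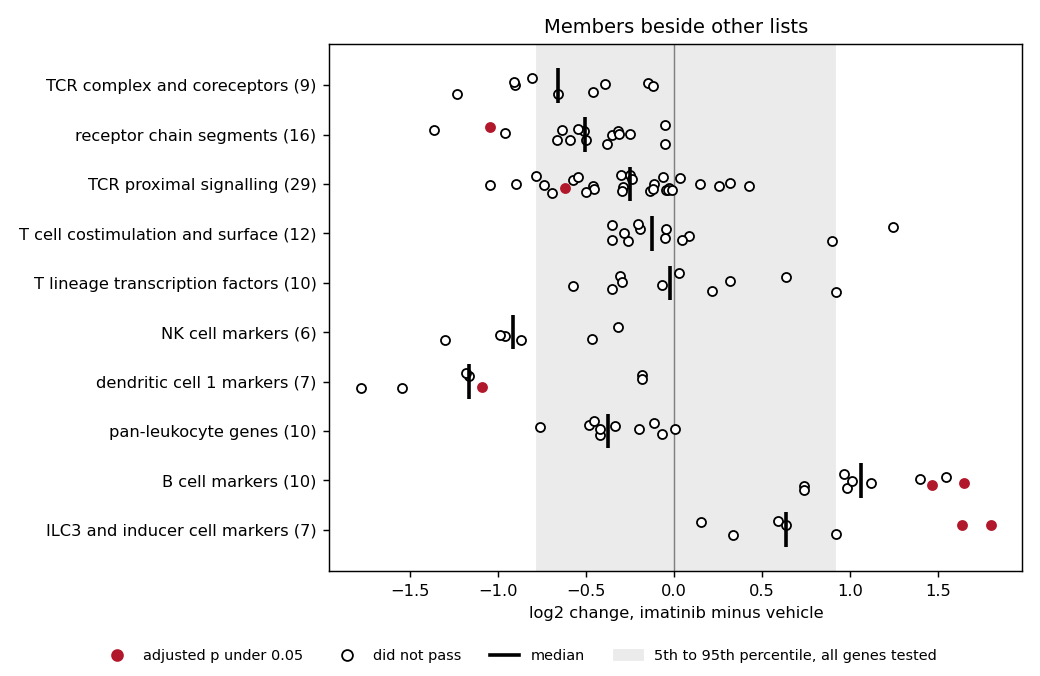
Change (log2, imatinib minus vehicle, horizontal axis) of each measured gene in 10 groups of genes, with the number measured in brackets, black bars for the medians and red points for called genes. Shading spans the 5th to the 95th percentile of all genes tested, from -0.78 to 0.92. The 9 members have a median of -0.66, between the NK cell and dendritic cell 1 markers further left and the costimulatory genes and transcription factors nearer 0.

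Genes of other cells that carry some of the same molecules lay in the same direction as the members. Of 9 NK cell markers 6 were measured and none was called, against 1.58% of all tested genes. Each of the 6 had a lower mean, against 45.7% of all genes. Their median was -0.91. Their summed signal was 1166 to 1634 on the imatinib arrays and 1938 to 2175 on the vehicle arrays, and Klra8 was detected on no array. Klra1 was at least 1.65-fold lower (adjusted p = 0.0775, limma) and Klrk1, an activating receptor also carried by CD8 T cells, had a change of -0.87. Of 9 markers of type 1 conventional dendritic cells, which in the mouse can carry the CD8 alpha chain without the beta chain, 7 were measured. Each of the 7 was lower in mean, against the same 45.7% of all genes, and their median was -1.17. Their summed signal was 2291 to 3509 on the imatinib arrays and 4242 to 4498 on the vehicle arrays, with Naaa and Flt3 detected on no array. Xcr1, the chemokine receptor that defines these cells, was called, at least 1.81-fold lower (adjusted p = 0.0418, limma). Like Klra1 it was detected on no imatinib array and entered the test through the 3 vehicle arrays alone, so neither gene adds support to its list. The part of NK and dendritic cells in the values of Cd8a, Cd247 and the other members was not tested.

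Of 10 pan-leukocyte genes all were measured and none was called, against 1.58% of all tested genes. A lower mean was found in 9, against 45.7% of all genes, and their median was -0.37. Their summed signal was 15926 to 17552 on the imatinib arrays and 18624 to 20858 on the vehicle arrays, with none of the 10 at background. The change was -0.76 for Lcp1, an actin-bundling protein of leukocytes, and -0.42 for Cd52, a small surface glycoprotein, neither called. Of 12 macrophage markers all were measured and none was called, against the same 1.58%. In mean 8 were lower, against 45.7% of all genes, and 4 higher. Their median was -0.38, and their sums overlapped, at 17933 to 22604 on the imatinib arrays and 21998 to 24928 on the vehicle arrays. The change was -0.76 for C1qa, a complement component, and -0.61 for Fcgr1, a high-affinity antibody receptor. Mertk, next in order of p, went the other way, with a change of 0.86 and no overlap, and was not called either. The part of leukocyte content as a whole in the members' values was not tested.

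Epithelium in the samples differed between arrays. The sum over 14 measured markers of intestinal epithelium was 62324 to 81224 on the imatinib arrays and 15590, 76847 and 39561 on vehicle 1, vehicle 2 and vehicle 3. Of the 14 genes 13 had a higher mean with imatinib, where 45.7% of all genes had a lower mean. The median change of the 14 was 1.04, and none of the 13 was called, against 1.58% of all tested genes. The single lower gene, Olfm4, a stem cell marker of the crypt, was called. It was detected on 1 imatinib array and all 3 vehicle arrays, so the size of its difference is not well measured. Fabp2 was detected on no array. The part of epithelium in the members' values was not tested.

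Every call named above lies near the threshold and rests on most of the arrays. No gene on the array passed without imatinib 1, without imatinib 3, without vehicle 1 or without vehicle 3, so Fyn, Xcr1, Olfm4 and TRBV12-2 lost their calls in each of these. With limma's array weights 7 of the 9 passed, all but Cd8b1 and Zap70, but under those weights 3317 genes were called lower and 4272 higher on the array.

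**Figure D5:**
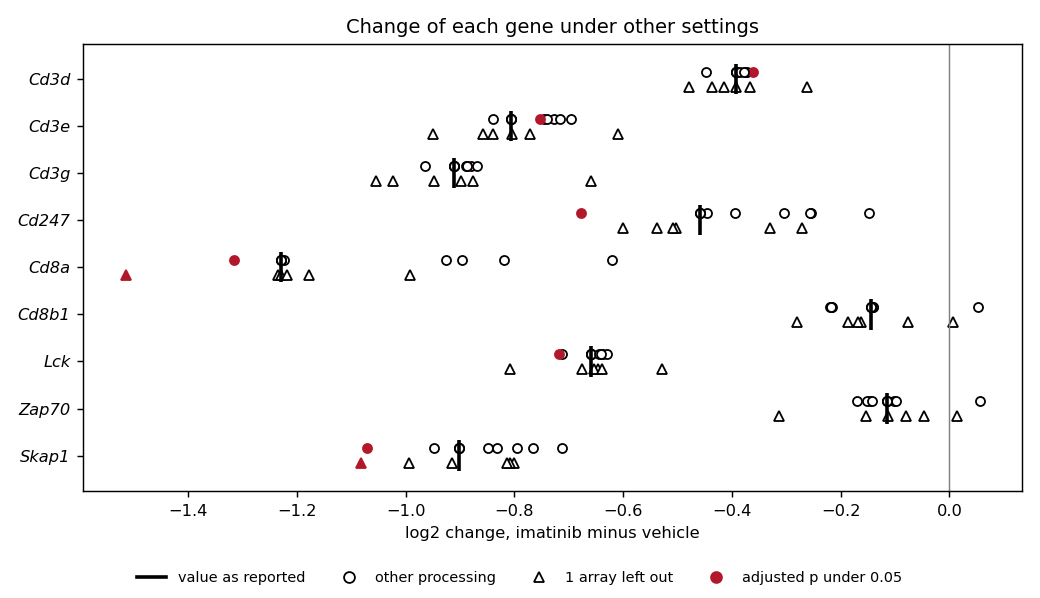
Change (log2, imatinib minus vehicle, horizontal axis) of the 9 tested members as reported (black bar), under other processing (circles) and with 1 array left out (triangles), with red for an adjusted p under 0.05. Cd3d, Cd3e, Cd3g, Cd247, Cd8a, Lck and Skap1 stay below 0 under each setting, and Cd8b1 and Zap70 cross it under 2 settings each.

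Genes outside the 10, clone and accession names passed over, whose signal ran most closely with a member across the 6 arrays were listed as a description. For Cd3e these were Itgae, the integrin chain of T cells and dendritic cells resident in epithelium (r = 0.996, change -1.18), Ntpcr, a nucleotide hydrolase (r = 0.993, change -0.59), and Epsti1, an interferon-induced gene (r = 0.989, change -0.51). For Cd8a they were the antiviral gene Trim30a (r = 0.998, change -1.05), Atp6v0e, a subunit of the proton pump (r = 0.997, change -0.26), and Isg15, an interferon-induced ubiquitin-like protein (r = 0.996, change -2.37). None of the 6 was called. Over only 6 arrays that form 2 groups such values are easily reached, and 131 genes had r above 0.95 with Cd3e and 289 with Cd8a. Cd4 could not be ranked because it was not tested.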

How the data were processed

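Total RNA of 6 tumours had been labelled and read on Illumina beadchips, and groups came from the sample titles. Per the file headers, the deposited probe table holds a signal intensity for 45281 probes with no scaling between arrays, bead numbers and a detection p-value. The deposited gene-level table holds log2 values, and each of its 31492 entries equalled the log2 of the mean intensity of exactly 1 run of neighbouring probes. The authors' own processed values, also log2, were deposited too, with equal distributions between arrays. How they were scaled is unknown, and the submitters' processing notes name only Partek.

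Entries were given current names from RefSeq (GRCm38.p6). Of the 10 genes 9 were found by deposited name or platform symbol alone. The entries LYT-2 (Cd8a) and 1700091G21RIK (Skap1) were added through unique synonyms and CD8B (Cd8b1) through its accession. The tested probes of these genes come from the added entries. The entries named CD8A and SKAP1 were detected on no array, so without the added entries none of these genes would have been tested. Probe sequences were not used here.

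Background was corrected with limma's nec (normexp on detection p-values, offset 16) before quantile normalization and log2. The offset draws folds of dim genes towards 0, but the correction as a whole need not. The change of the dim Cd8a was -1.23 with it and -0.90 with no background correction. A probe needed a detection p under 0.05 on 3 of 6 arrays. Of several such probes the brightest stood for the gene, and 14713 genes were fitted with lmFit and eBayes (limma 3.58.1, R 4.3.3). The same steps were run on simulated arrays with equal and independent noise for every probe. These arrays differ from that setting, so the simulation does not bear on the precision of the members. The alternatives covered background correction, offset, scaling, filter, use of several probes, variance model, array weights, replicate block, both other deposited tables, the threshold and each array left out. The 10 members and the 13 gene lists were chosen with earlier results of these data known. A list's named genes are its called ones, up to 4, or else the 2 measured genes of smallest p. Cd2, Cd5, Kit and Ptprc were added as markers, Dok1, Lcp2, Fyb and Mertk as next in order of p, and the receptor segments after their values were seen. Each group has only 3 arrays, which limits the precision.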

Additional observations from a re-analysis of the deposited data

How the results depend on the processing

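The number of members called was 0 except with array weights (7 lower), at an adjusted p of 0.1 (5 lower) and among the fits with 1 array left out (0 to 1 lower, Cd8a without imatinib 2 and Skap1 without vehicle 2). Over the whole array the counts of lower and higher genes were 282 and 127 with the mean of all kept probes, 275 and 157 with a trended robust variance, 3317 and 4272 with array weights, 264 and 121 in the authors' processed table, 280 lower in the deposited gene-level table, 895 and 778 at an adjusted p of 0.1, and 0 and 0 without the detection filter. Leaving out 1 array gave 0 to 590 lower and 0 to 770 higher, the highest without vehicle 2. The replicate block gave 0 and 0 genes and no member. Same-numbered arrays correlated at -0.11, -0.31 and 0.02 in their deviations from the group means, so the numbers give no pairing. Signs turned for Cd8b1 (0.0531) and Zap70 (0.0558) with array weights, and with 1 array left out Cd8b1 ranged from -0.281 to 0.00641 and Zap70 from -0.313 to 0.0147, both above 0 without imatinib 3. Relative to Cd3g, Cd8a turned to 0.0512 with an offset of 50 and to 0.267 in the authors' processed table, where it was 0.0751 relative to Cd3e and Cd8b1 was -0.0706 relative to Cd247; the cause was not tested. A larger offset or the lack of background correction draws dim genes such as Cd8a and Cd247 towards 0 by construction. Requiring a detection p under 0.01 on all 6 arrays left Cd8a and Cd247 untested. The other settings kept sign and side of the threshold. Cd4 and 18 of 19 alpha chain entries were detected on no array, so signal over background limits what can be said of them.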

Other observations

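Markers of B cells and of lymphoid tissue inducer cells lay in the opposite direction to the T cell receptor genes. Of 12 B cell markers 10 were measured, each with a higher mean with imatinib, where 45.7% of all genes had a lower mean. Their median change was 1.06, and the summed signal was 982 to 1490 on the imatinib arrays and 339 to 607 on the vehicle arrays. Vpreb3, a gene of B cell precursors and some mature B cells, was called, at least 2.19-fold higher (adjusted p = 0.0339, limma). It was detected on no vehicle array and entered the test through the 3 imatinib arrays alone. Cr2 was detected on 1 vehicle array and all 3 imatinib arrays. Both reached the filter through the imatinib arrays, so neither Vpreb3 nor Cr2 adds support to the counts of this list. Cd79a, a signalling chain of the B cell receptor and so the counterpart of the CD3 chains, had 6.50, 6.88 and 7.18 on the imatinib arrays and 4.95, 5.13 and 5.54 on the vehicle arrays, a change of 1.65 ± 0.23 (adjusted p = 0.0418, limma). Cd79a was detected on 2 of the 3 vehicle arrays, so the size of its change is not well measured. Pax5 was detected on no array.

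Of 11 markers of lymphoid tissue inducer cells and group 3 innate lymphoid cells 7 were measured. Each of the 7 was higher in mean, where 45.7% of all genes had a lower mean, and their median was 0.64. Tnfsf11 was detected on 1 vehicle array and all 3 imatinib arrays. This gene reached the filter through the imatinib arrays, so it adds no support to the count. Cxcr5, a chemokine receptor of B cells, follicular T cells and inducer cells, rose by 1.80 ± 0.19 (adjusted p = 0.0339, limma). It was detected on 2 of the 3 vehicle arrays, so the size of its change is not well measured. Ccr6, a receptor for a mucosal chemokine, rose by 1.63 ± 0.25 (adjusted p = 0.0455, limma). Of 7 plasmacytoid dendritic cell markers 6 were measured, 2 lower in mean, against 45.7% of all genes, and 4 higher. None of these 6 was called, against 1.58% of all tested genes. The change was 1.22 for Ly6d and -1.73 for Pacsin1. These calls too were lost without imatinib 1, imatinib 3, vehicle 1 or vehicle 3.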
